A study of Sus scrofa with 24 samples.

Results

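The HOX cluster miRNAs of the pig, miR-10, miR-196 and miR-615, were followed in cultured adipocytes of 2 fat sources. Their use as marks of depot position was not tested. They were chosen by name, as every entry called ssc-miR-10a, ssc-miR-10b, ssc-miR-196a, ssc-miR-196b or ssc-miR-615 with any number or arm, which gave 7 of the 1587 entries: ssc-miR-10a-5p, ssc-miR-10a-3p, ssc-miR-10b, ssc-miR-196a, ssc-miR-196b-5p, ssc-miR-196b-3p and ssc-miR-615. Small RNA was sequenced from 24 libraries in 8 groups of 3. The groups BF-0d, BF-2d, BF-4d and BF-8d are subcutaneous adipocytes grown from preadipocytes of the back fat, and IMF-0d, IMF-2d, IMF-4d and IMF-8d are intramuscular adipocytes grown from preadipocytes of the longissimus dorsi muscle. The cells were primary cultures from Yorkshire piglets aged 6 days, and the number in a group name is the day of culture after adipogenic induction. Both sources received the same induction medium with 3-isobutyl-1-methylxanthine, dexamethasone and insulin, then medium with insulin alone, and then growth medium renewed every other day. The study used 3 piglets, and the labels do not say which piglet a library came from, so the p-values measure the spread between these libraries. Tests over several days treat the libraries of a source as independent, although they may come from the same piglets.

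HOX genes encode transcription factors that lie in 4 clusters, HOXA to HOXD, and are switched on in overlapping stretches along the body axis in the order in which they lie on the chromosome. Several miRNA genes lie between them and are transcribed in similar stretches. miR-10 and miR-196 are known to bind HOX transcripts, HOXD10 being a known target of miR-10b and HOXB8 of miR-196, while miR-615 lies inside HOXC5. Fat depots and the preadipocytes taken from them are known to keep depot-specific HOX expression in culture.

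The mature sequences show how closely the members are related and which of them can be told apart by reads that match without mismatches. They are given 5′ to 3′ as the study lists them, in DNA letters, with the seed (bases 2 to 8, which pairs with targets) in capitals.
ssc-miR-10a-5p: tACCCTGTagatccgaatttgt
ssc-miR-10b: tACCCTGTagaaccgaatttgt
ssc-miR-10a-3p: cAAATTCGtatctaggggaat
ssc-miR-196a: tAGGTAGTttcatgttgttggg
ssc-miR-196b-5p: tAGGTAGTttcctgttgttggg
ssc-miR-196b-3p: cGACAGCAcgacactgccttca
ssc-miR-615: tCCGAGCCtgggtctccctct
ssc-miR-10a-5p and ssc-miR-10b share the seed ACCCTGT and differ by T12A, the base of ssc-miR-10a-5p first and positions counted from 1 at the 5′ end. ssc-miR-196a and ssc-miR-196b-5p share the seed AGGTAGT and differ by A12C, the base of ssc-miR-196a first. In each pair the differing base lies outside the seed. Among the 958 entries listed with a mature sequence, no other had that of a member, and none of the 1587 entries had the same values as a member in all libraries.

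Exact matches to the Sscrofa11.1 genome placed the members in all 4 HOX clusters. The neighbours given are the nearest genes that the annotation names as HOX with a letter and a number. HOXB4, HOXB9 and HOXD4 are not among the genes so named, so a HOX gene without such a name may lie nearer. ssc-miR-10a-5p (chr12:24833694-24833715, minus strand) and ssc-miR-10a-3p (chr12:24833654-24833674) are the 2 arms of MIR10A, which lies between HOXB3 and HOXB5, 6137 bases from HOXB3 in the case of the 5p arm. The study lists this precursor on the plus strand, whereas the genome match and the RefSeq gene are on the minus strand. ssc-miR-10b (chr15:81951653-81951674, plus strand) is MIR10B, between HOXD8 and HOXD3. ssc-miR-196a matched 2 places exactly, MIR196A-2 between HOXC10 and HOXC9 (chr5:19204463-19204484, plus strand) and MIR196A-1 between HOXB8 and HOXB13 (chr12:24886364-24886385, minus strand), so its reads can come from either gene and cannot be assigned to one. ssc-miR-196b-5p (chr18:45404329-45404350, plus strand) lies between HOXA10 and HOXA9, 244 bases from HOXA9 and inside an exon of the antisense long non-coding RNA LOC102159438, where the annotation names no miRNA gene. ssc-miR-196b-3p (chr18:45404365-45404386) is the other arm of that hairpin. ssc-miR-615 (chr5:19246820-19246840, plus strand) is MIR615 in an intron of HOXC5, on the strand of HOXC5 and 42.2 kb from MIR196A-2. MIR10A and MIR196A-1 are 52.6 kb apart on chromosome 12.

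**Figure D1:**
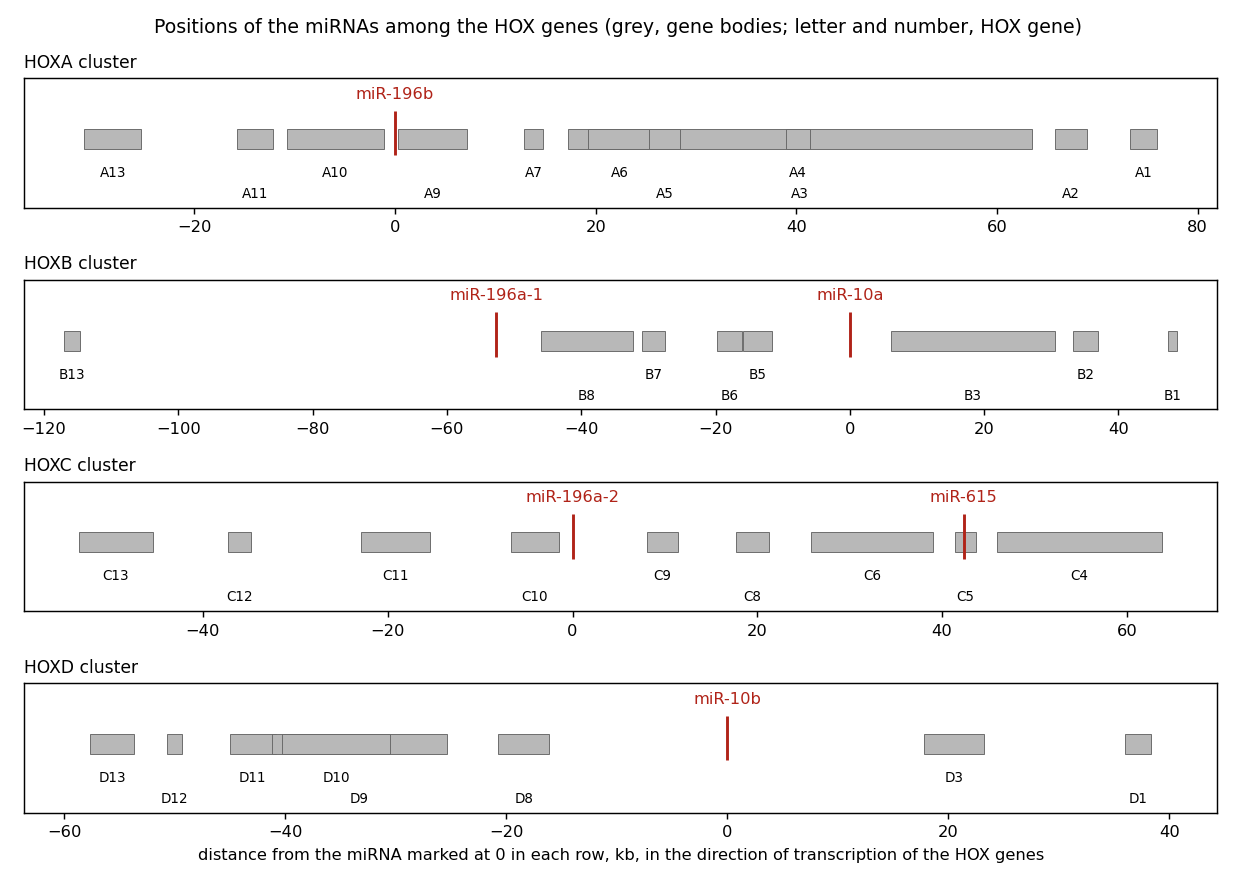
Positions of the miRNA genes (red) among the HOX genes named in the annotation (grey boxes, labelled by cluster letter and number) in the 4 HOX clusters of the pig. HOXB4, HOXB9 and HOXD4 are not named there and not drawn. The horizontal axis is the distance in kb from the miRNA at 0 in the direction of transcription, and it shows miR-196b next to HOXA9 and the miR-196a-2 and miR-615 genes 42.2 kb apart in the HOXC cluster.

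Values are in TPM as the authors name it, the reads of an entry scaled to the same total of miRNA reads in every library, and a library held from 4954845 to 16863560 such reads. 3 reads, taken as the floor of a library, were worth 0.178 to 0.605 TPM. Floors and counting intervals cover counting error only, since none of the sources used here states molecular identifiers. ssc-miR-21-5p, an abundant miRNA of cultured cells, made up 27.9% to 60.5% of a library, and its share was lowest on day 8 (35.5% ± 6.64 for BF-8d and 42.5% ± 2.85 for IMF-8d, SD, n = 3, against 57.2% ± 2.66 for BF-0d and 57.4% ± 3.92 for IMF-0d). TPM values are shares of one total, so results are also given below under median-of-ratios scaling where this changes a call. The adipocyte list (miR-378, miR-148a and miR-143) had 5 of 5 entries past the minimum mean of 1 TPM, with summed levels of 181812 to 352335 TPM in IMF and 183319 to 458758 TPM in BF libraries, and 1 of them was lower in IMF on each day. From day 0 to day 8, 2 of the adipocyte entries rose and 1 fell in BF, and 1 rose in IMF. The skeletal muscle list had 3 of 7 tested, with summed levels of 475 to 2362 TPM in BF and 696 to 1739 TPM in IMF libraries, nearly all of it from ssc-miR-1, at 450 to 2324 TPM in BF and 672 to 1707 TPM in IMF libraries. ssc-miR-133a-3p stood at 7.53 to 30.2 TPM and ssc-miR-499-5p at 8.57 to 23.2 TPM in BF libraries, while ssc-miR-206, made in skeletal muscle, stayed at or under 0.934 TPM in all libraries. Of the 3 tested muscle entries, 1 was higher and 1 lower in IMF on day 0 and 1 higher on day 2, while 2 rose and 1 fell from BF-0d to BF-8d and 1 rose from IMF-0d to IMF-8d. The blood list had 1 of 7 tested and summed levels of 1.19 to 6.37 TPM in BF and 0.662 to 8.08 TPM in IMF libraries. Its tested entry, ssc-miR-486, was lower in IMF on day 4 by limma (neither edgeR nor DESeq2 called it) and higher on day 8, and rose from day 0 to day 8 in both sources (from 0.384 ± 0.128 to 2.43 ± 0.580 TPM in BF and from 0.834 ± 0.405 to 6.27 ± 0.344 TPM in IMF, SD, n = 3). The part of these lists in the results of the same days was not tested.

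The members ranged from 0 to 30859 TPM in a library. ssc-miR-10b ranked from 5th to 9th and ssc-miR-10a-5p from 9th to 20th among the entries of a library, and together they took 1.96% ± 0.501 (SD, n = 3) of the reads in BF-0d and 1.40% ± 0.446 in IMF-0d. The other members ranked from 113th downwards. 6 of the 7 members passed the minimum mean of 1 TPM over the 24 libraries and were tested with limma on log2(TPM + 1). ssc-miR-196b-3p did not pass, and ssc-miR-196a passed only through its IMF libraries (mean 0.462 TPM in BF and 3.06 TPM in IMF), so counts over the 6 do not stand for the whole family. A DE-miRNA below has a Benjamini-Hochberg adjusted p under 0.05 over all 430 tested entries and a fold change above 1.5. On this scale the change of miRNAs near 1 TPM is understated.

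**Figure D2:**
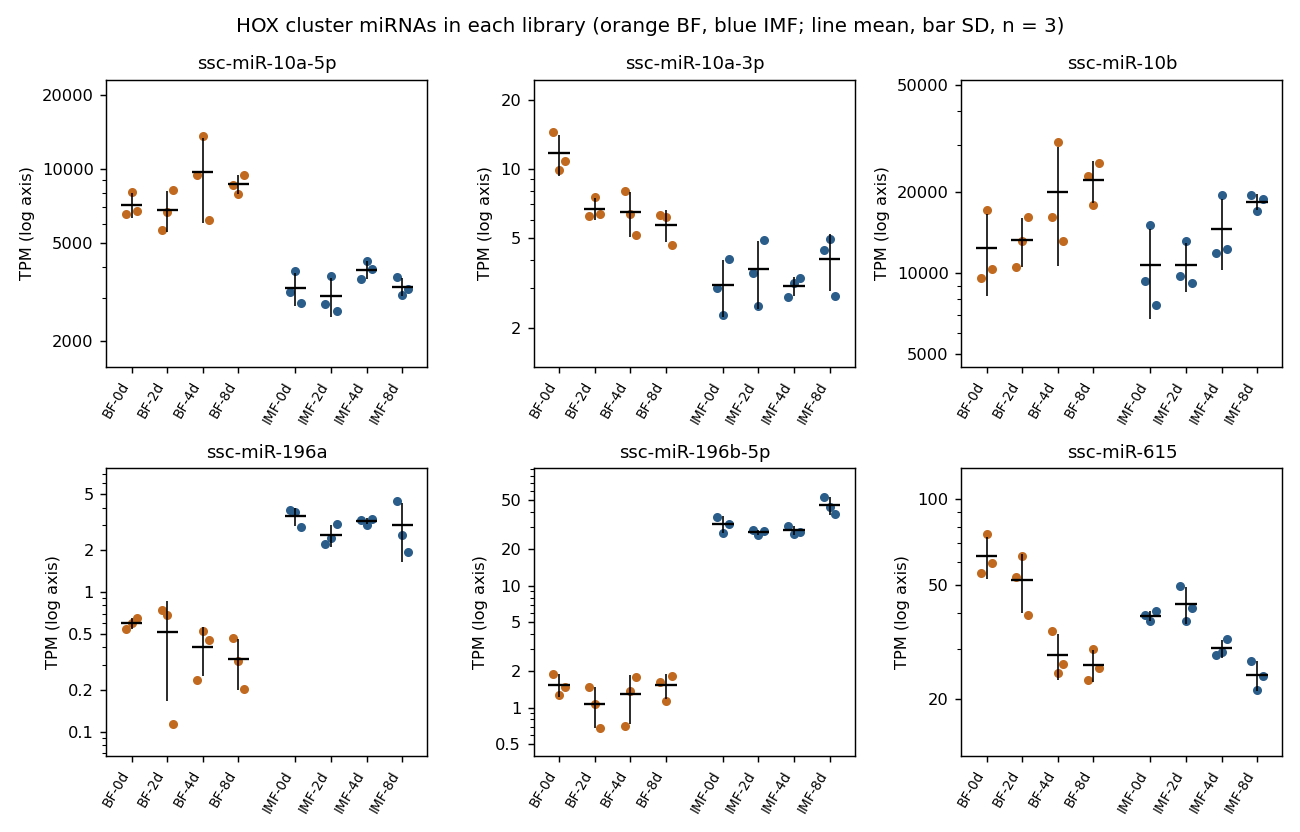
Level of each tested member in TPM (log axis) in every library of the 8 groups, BF in orange and IMF in blue, with the mean as a line and the SD as a bar (n = 3). ssc-miR-196a and ssc-miR-196b-5p sit higher in every IMF library than in any BF library, ssc-miR-10a-5p sits lower in every IMF library, and ssc-miR-10b overlaps between the sources.

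Ordered by group mean, the members fell into 3 patterns. ssc-miR-196a and ssc-miR-196b-5p had their 4 IMF groups above their 4 BF groups, and the lowest IMF group (IMF-2d) did not overlap the highest BF group (BF-0d). ssc-miR-10a-5p had the opposite order, from BF-4d at 9729 ± 3682 TPM to IMF-2d at 3050.3 ± 543 TPM (SD, n = 3), and the only neighbours in it that did not overlap were BF-2d and IMF-4d. ssc-miR-10a-3p also had the BF groups on top, with BF-0d apart from BF-2d and overlap between all later neighbours. ssc-miR-10b and ssc-miR-615 mixed the sources, ssc-miR-10b from BF-8d down to IMF-0d with overlap between all neighbours. ssc-miR-615 ran from BF-0d down to IMF-8d and had its groups of days 0 and 2 above those of days 4 and 8, with IMF-0d apart from IMF-4d.

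The first question was whether the members differ between subcutaneous and intramuscular adipocytes on the same day. ssc-miR-196b-5p was higher and ssc-miR-10a-5p was lower in IMF on all 4 days, while ssc-miR-10b passed the test on none. The levels of ssc-miR-196a were also higher in IMF, and since that miRNA entered the test only through its IMF libraries, its place in the following counts is a description. On day 0, 5 of the 6 tested members were DE-miRNAs, against 29.3% of all 430 tested entries, 2 of them higher in IMF (13.5% of all entries) and 3 lower (15.8%). On day 2 they were 3 of 6, against 12.3% of all entries, 2 higher (5.81%) and 1 lower (6.51%). On day 4 they were 4 of 6, with 36.3% of all entries, 2 higher (7.44%) and 2 lower (28.8%). On day 8 they were 3 of 6, with 37.2% of all entries, 2 higher (12.1%) and 1 lower (25.1%). The BF and IMF libraries did not overlap for 5 of the 6 members on day 0 (47.7% of all entries), 4 on day 2 (33.3%), 4 on day 4 (50.2%) and 3 on day 8 (51.2%), so that on day 8 the share of members lay near that of all entries. In such cultures fewer cells of a type and less RNA per cell cannot be told apart.

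The scaling mattered for the direction of weak differences. The median log2 fold change of the 430 entries on days 0, 2, 4 and 8 was -0.13, -0.14, -0.34 and -0.28, and under median-of-ratios scaling it was -0.01, -0.01, -0.0010 and -0.03. The DE-miRNAs higher in IMF were 58 of 126 on day 0, 25 of 53 on day 2, 32 of 156 on day 4 and 52 of 160 on day 8, and under median-of-ratios scaling they were 63 of 101, 36 of 60, 52 of 120 and 83 of 147. In the average over days they were 42 of 136, against 47 of 100 under that scaling. ssc-miR-196a, ssc-miR-196b-5p and ssc-miR-10a-5p kept their direction under every setting tried.

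ssc-miR-196b-5p, the miRNA of the HOXA cluster, had the highest fold change of IMF over BF among the 430 tested entries on each day. In BF it was near the bottom of what the libraries could show. Its levels were 1.90, 1.26 and 1.48 TPM in BF-0d, 1.49, 1.07 and 0.682 TPM in BF-2d, 0.703, 1.38 and 1.80 TPM in BF-4d and 1.64, 1.13 and 1.82 TPM in BF-8d. These values rest on 6 to 25 reads per library. In IMF they were 36.9, 26.9 and 32.3 TPM in IMF-0d, 28.5, 26.0 and 28.0 TPM in IMF-2d, 31.1, 26.7 and 27.4 TPM in IMF-4d and 53.8, 44.4 and 39.0 TPM in IMF-8d, from 246 to 706 reads per library. The lowest IMF library lay far above the highest BF library, and the 12 libraries of each source did not overlap. Pooled over days, 173 of 126109483 BF reads and 4691 of 137293638 IMF reads were ssc-miR-196b-5p, a ratio of 24.9 (95% exact binomial counting interval 21.4 to 29.2). Averaged over the 4 days, the log2 fold change was 3.85 ± 0.10 (SE, limma adjusted p = 1.80e-21). In that average 4 of the 6 tested members and 31.6% of all entries were DE-miRNAs, 2 members being higher (9.77% of all entries) and 2 lower (21.9%). Over 32 alternatives, each called, this adjusted p stayed at or under 3.25e-19.

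The other arm of that hairpin, ssc-miR-196b-3p, was barely sequenced. It had 6 reads in all, spread over 5 of the 12 IMF libraries, and 0 of 126109483 reads in BF, which allows up to 0.0238 TPM there over the pooled libraries. In IMF the 5p arm had 4691 reads beside those 6. No fold was computed for the 3p arm, since the counts are too few.

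ssc-miR-196a, whose sequence lies in the HOXB and HOXC clusters, was also higher in IMF, at lower levels. In BF it was read 6, 9 and 11 times in the libraries of BF-0d, 6, 9 and 1 times in BF-2d, 2, 5 and 5 times in BF-4d and 6, 2 and 1 times in BF-8d, so 4 of the 12 values rest on 1 or 2 reads. Its IMF levels were 3.85, 3.72 and 2.91 TPM in IMF-0d, 2.20, 2.41 and 3.07 TPM in IMF-2d, 3.29, 3.03 and 3.31 TPM in IMF-4d and 4.50, 2.54 and 1.92 TPM in IMF-8d, against 0.114 to 0.743 TPM in BF. Here too no BF library reached the lowest IMF library. The pooled reads, 63 in BF and 419 in IMF, gave a ratio of 6.11 (95% exact binomial counting interval 4.68 to 8.09). On the log2(TPM + 1) scale the difference was 1.49 ± 0.10, 1.25 ± 0.21, 1.59 ± 0.25 and 1.54 ± 0.26 (SE, days 0, 2, 4 and 8), and DESeq2 on whole reads put it at 2.73, 2.47, 3.40 and 3.28. The limma adjusted p was 0.000698, 0.0183, 0.000492 and 0.000317 in that order, but the minimum mean of 1 TPM was reached only through the IMF libraries. Over all entries without that minimum, limma gave ssc-miR-196a an adjusted p of 0.00620, 0.131, 0.0139 and 0.0295. The call of day 2 was lost without replicate 1 of BF-2d (adjusted p = 0.0588) or without replicate 1, 2 or 3 of IMF-2d (0.0546, 0.0674 and 0.0793). It was also lost with a pseudocount of 0.1 TPM (limma adjusted p = 0.0524), and the calls of the other 3 days were kept whichever library was left out.

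ssc-miR-10a-5p, of the HOXB cluster and one of the most abundant miRNAs of these cells, was lower in IMF. In BF it stood at 6563, 8068 and 6759 TPM in BF-0d, 5624, 6668 and 8196 TPM in BF-2d, 9458, 13539 and 6191 TPM in BF-4d and 8641, 7889 and 9438 TPM in BF-8d. In IMF it stood at 3159, 3845 and 2846 TPM in IMF-0d, 2821, 3670.3 and 2659.5 TPM in IMF-2d, 3558, 4214 and 3915 TPM in IMF-4d and 3626, 3090.0 and 3266 TPM in IMF-8d. All 12 BF libraries lay above all 12 IMF libraries, and replicate 2 of BF-4d was the highest. The log2 fold change was -1.12 ± 0.15, -1.16 ± 0.18, -1.25 ± 0.25 and -1.38 ± 0.17 (SE, days 0, 2, 4 and 8), with limma adjusted p = 0.00418, 0.0155, 0.00234 and 2.07e-05. Over the 4 days it was -1.23 ± 0.10 (limma adjusted p = 1.61e-10), and -0.96 under median-of-ratios scaling. The call of day 2 was lost without replicate 1 of BF-2d (adjusted p = 0.0588), replicate 1 of IMF-2d (0.0659) or replicate 3 of IMF-2d (0.0728). Without a filter on low values, limma lost the calls of day 2 (adjusted p = 0.117) and day 4 (0.102). The endothelial miRNA ssc-miR-126 moved with it in part: 2 of its 2 entries were tested and limma called both lower in IMF over the 4 days (1 of 2 on day 4, 2 on day 8 and neither on days 0 and 2, where 1 and 0 had an unadjusted p under 0.05, edgeR called 0 and 0, and DESeq2 1 and 0), with summed levels of 26.4 to 90.9 TPM in BF and 18.2 to 40.4 TPM in IMF libraries, and its part in the result was not tested.

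ssc-miR-10a-3p, the passenger arm of the same hairpin, followed the 5p arm on day 0 and less so later. Its levels in BF were 14.5, 9.88 and 10.9 TPM in BF-0d, 6.19, 7.56 and 6.36 TPM in BF-2d, 7.96, 6.35 and 5.12 TPM in BF-4d and 6.31, 6.13 and 4.64 TPM in BF-8d. In IMF they were 3, 2.30 and 4.05 TPM in IMF-0d, 3.50, 2.51 and 4.87 TPM in IMF-2d, 2.75, 3.15 and 3.31 TPM in IMF-4d and 4.42, 4.95 and 2.77 TPM in IMF-8d. The sources did not overlap on days 0, 2 and 4 and overlapped on day 8. It was a DE-miRNA on day 0 (log2 fold change -1.63 ± 0.23, SE, limma adjusted p = 0.00495) and on day 4 (-0.86 ± 0.24, adjusted p = 0.0120). It did not pass on day 2 (-0.76 ± 0.21, limma adjusted p = 0.0710) or on day 8 (-0.43 ± 0.24, adjusted p = 0.178, 95% interval -0.95 to 0.10). In one fit of the 24 libraries it passed on day 2 (limma adjusted p = 0.0168). The call of day 4 was lost without replicate 1 of IMF-4d (limma adjusted p = 0.058) and under median-of-ratios scaling (adjusted p = 0.106), and neither edgeR (0.130) nor DESeq2 (0.220) made it on whole reads, nor limma without a filter (0.0672).

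ssc-miR-10b, of the HOXD cluster, passed the test between the sources on no day. In BF it stood at 9636, 17254 and 10417 TPM in BF-0d, 10590.1, 13181 and 16197 TPM in BF-2d, 16141, 30859 and 13205 TPM in BF-4d and 22926, 18027 and 25831 TPM in BF-8d. In IMF it stood at 9351, 15156 and 7606 TPM in IMF-0d, 9746, 13238 and 9218 TPM in IMF-2d, 11879.7, 19562 and 12288 TPM in IMF-4d and 19538, 17011 and 18849 TPM in IMF-8d. The sources overlapped on each of the 4 days, and the highest library was replicate 2 of BF-4d, as for ssc-miR-10a-5p. The log2 fold change on days 0, 2, 4 and 8 was -0.23, -0.31, -0.40 and -0.26, with 95% intervals of -1.08 to 0.63, -0.80 to 0.18, -1.03 to 0.23 and -0.70 to 0.18. The log2 fold change averaged over the days was -0.30 ± 0.14 (SE, limma adjusted p = 0.0751, 95% interval -0.59 to -0.01), and -0.03 under median-of-ratios scaling. ssc-miR-10a-5p, which shares its seed, was thus lower in IMF while ssc-miR-10b was not called.

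ssc-miR-615, from the HOXC5 intron, was a DE-miRNA on day 0, lower in IMF, and on none of the later days. The day 0 levels were 55.0, 75.1 and 59.6 TPM in BF and 39.2, 37.4 and 40.5 TPM in IMF, without overlap. The later groups overlapped, with 53.4, 63.3 and 39.2 TPM in BF-2d against 49.7, 37.4 and 41.6 TPM in IMF-2d, 34.5, 24.8 and 26.6 TPM in BF-4d against 28.4, 29.2 and 32.6 TPM in IMF-4d, and 23.3, 30.0 and 25.6 TPM in BF-8d against 27.2, 21.5 and 24.1 TPM in IMF-8d. The log2 fold change of day 0 was -0.67 ± 0.14 (SE, limma adjusted p = 0.0181), and on the later days it lay between -0.25 and 0.08. Under median-of-ratios scaling it was -0.51 on day 0 and not called (limma adjusted p = 0.0736), and neither edgeR (0.0906) nor DESeq2 (0.0515) called it on whole reads, nor limma without a filter (0.0585). The call of day 0 was also lost without replicate 2 or 3 of BF-0d or replicate 1 or 2 of IMF-0d, with limma adjusted p = 0.0292 (log2 fold change -0.54, under the fold threshold), 0.0559, 0.0562 and 0.0519.

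**Figure D3:**
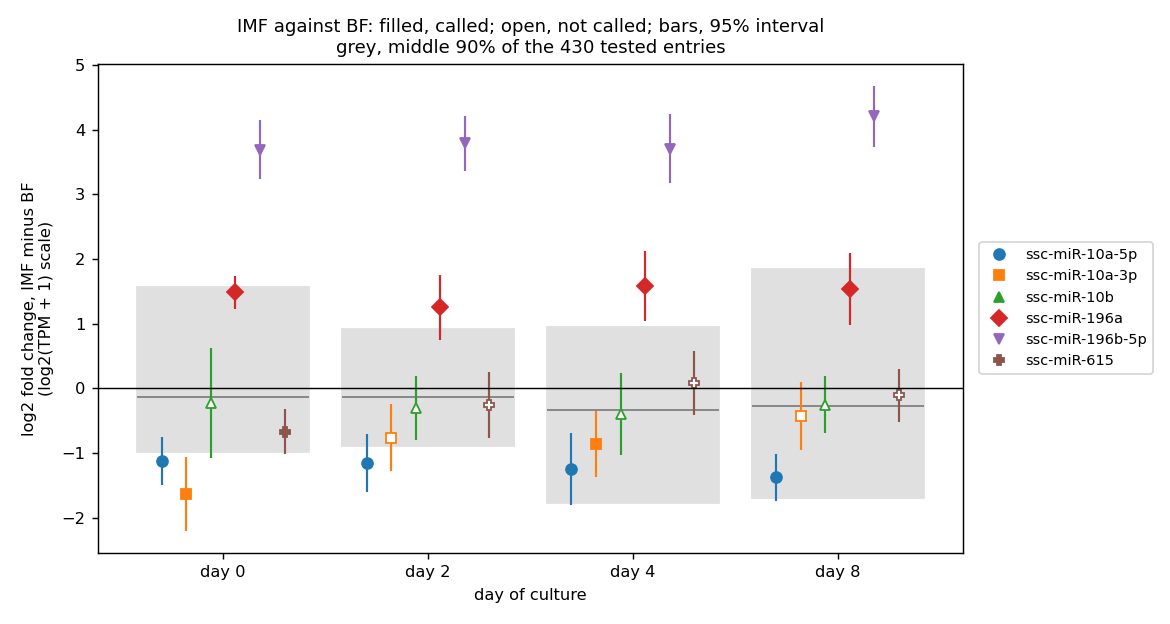
Log2 fold change of IMF minus BF on the log2(TPM + 1) scale for the 6 tested members on each day, with 95% intervals, filled where the member is a DE-miRNA and open where it is not. Grey boxes hold the middle 90% of the 430 tested entries and the grey line is their median, and ssc-miR-196b-5p lies above the box on all 4 days, at 3.69, 3.79, 3.71 and 4.21.

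Ratios of 2 members within a library do not depend on how the library is scaled, and 5 of them were compared between the sources. Reads of different miRNAs are not captured alike, so such a ratio is compared between libraries and does not give a ratio of molecules. The 160000 relabellings of BF and IMF within days allow no p below 1.25e-05. The exact permutation tests were two-sided and adjusted over the 5 ratios. They treat the libraries of the 4 days as independent, which does not hold if these come from the same 3 piglets. With 3 against 3 libraries no exact permutation p falls below 0.1. ssc-miR-196b-5p had 0.222 ± 0.0666 reads per 1000 reads of ssc-miR-10a-5p in BF-0d, 10.004 ± 2.61 in IMF-0d (SD, n = 3), and 0.175 ± 0.0276 in BF-8d and 13.7 ± 1.55 in IMF-8d. Over the 4 days this HOXA to HOXB ratio was 58.9-fold higher in IMF (log2 difference 5.88, adjusted exact permutation p = 1.56e-05). Each of these 2 members already separated all libraries of the sources, in opposite directions. Their ratio therefore had to separate them too, and its p adds no further support. All 12 IMF libraries lay above all 12 BF libraries, the log2 ratio running from -13.72 to -11.75 in BF and from -7.30 to -6.07 in IMF.

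The members that share a seed also shifted against each other. There were 1.72 ± 0.368 reads of ssc-miR-10b for each read of ssc-miR-10a-5p on day 0 in BF, against 3.19 ± 0.666 in IMF (SD, n = 3). By day 8 they were 2.56 ± 0.240 and 5.56 ± 0.196. The ratio was 1.91-fold higher in IMF over the 4 days (adjusted exact permutation p = 1.56e-05), and the sources did not overlap on any day. ssc-miR-196b-5p had 2.63 ± 0.760 reads for each read of ssc-miR-196a in BF-0d and 9.31 ± 1.95 in IMF-0d. This ratio was 3.43-fold higher in IMF (adjusted exact permutation p = 1.56e-05), although in BF it rests on 1 to 11 reads of ssc-miR-196a per library. In BF-2d it was 3.19 ± 2.45. With ssc-miR-196a past the minimum mean only through its IMF libraries, the ratio is a description and its p gives no separate support. In pooled reads ssc-miR-196b-5p was 24.9-fold and ssc-miR-196a 6.11-fold higher in IMF, the latter on 63 BF reads.

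The pair from the HOXC cluster also parted, though the reads of ssc-miR-196a can also come from the HOXB copy. ssc-miR-615 had 106 ± 17.8 reads for each read of ssc-miR-196a on day 0 in BF, against 11.4 ± 2.20 in IMF (SD, n = 3). The ratio was 8.66-fold lower in IMF over the 4 days (adjusted exact permutation p = 1.56e-05). In BF it rests on 1 to 11 reads of ssc-miR-196a per library and was 170 ± 152 in BF-2d. Since ssc-miR-196a passed the minimum mean only through its IMF libraries, this ratio is a description and its p gives no separate support. The ratio of the arms of miR-10a differed least on average, and its direction was not the same on all days. ssc-miR-10a-3p had 1.68 ± 0.494 reads per 1000 reads of ssc-miR-10a-5p in BF-0d and 0.990 ± 0.414 in IMF-0d, which overlapped. On day 8 it had 0.666 ± 0.153 in BF-8d and 1.22 ± 0.377 in IMF-8d, where the lowest IMF library (0.847) lay above the highest BF library (0.777). These opposite differences left a log2 difference of 0.12 over the 4 days (adjusted exact permutation p = 0.601).

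**Figure D4:**
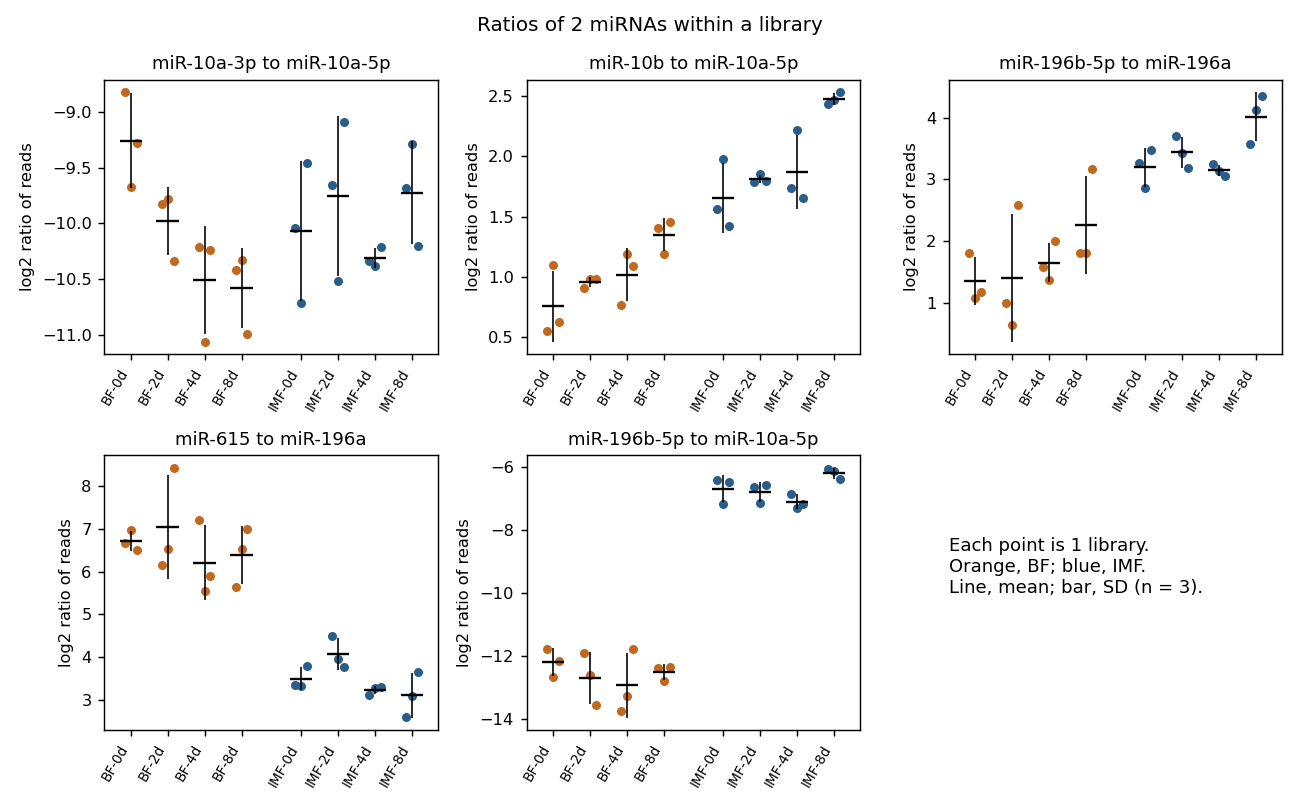
Log2 ratio of the reads of 2 members in each library, by group, BF in orange and IMF in blue, with the mean as a line and the SD as a bar (n = 3). The ratio of ssc-miR-196b-5p to ssc-miR-10a-5p runs from -13.72 to -11.75 in BF and from -7.30 to -6.07 in IMF, and that of ssc-miR-10a-3p to ssc-miR-10a-5p overlaps between the sources on days 0, 2 and 4 but not on day 8.

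The second question was whether the members change while the cells differentiate. From BF-0d to BF-8d, 3 of the 6 tested members were DE-miRNAs, against 42.8% of all 430 tested entries, 120 of 184 of which rose (97 of 185 under median-of-ratios scaling). ssc-miR-10b rose (log2 fold change 0.87 ± 0.23, SE, limma adjusted p = 0.00629), and ssc-miR-615 (-1.23 ± 0.21, adjusted p = 0.000181) and ssc-miR-10a-3p (-0.92 ± 0.23, adjusted p = 0.00451) fell. In these 3 and in ssc-miR-196a the libraries of day 0 and day 8 did not overlap, 4 of 6 members, against 53.7% of all entries. Each call held whichever library was left out, and under median-of-ratios scaling, where ssc-miR-10b rose by 0.69, but that of ssc-miR-10b was lost without a filter (limma adjusted p = 0.140). ssc-miR-10a-5p (0.28 ± 0.19), ssc-miR-196a (-0.27 ± 0.23) and ssc-miR-196b-5p (-0.01 ± 0.24) did not pass. Of the 2 endothelial entries, limma called 1 higher from BF-0d to BF-8d, edgeR called 1 and DESeq2 0. From IMF-0d to IMF-8d limma, edgeR and DESeq2 called 0 of them, with 0 at an unadjusted p under 0.05. The part of these entries in the changes was not tested.

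From IMF-0d to IMF-8d, 2 of the 6 were DE-miRNAs, against 30.5% of all entries, and for 3 of 6 the libraries did not overlap, against 48.8%. ssc-miR-615 fell (log2 fold change -0.67 ± 0.13, SE, limma adjusted p = 0.00938), from 39.0 ± 1.55 TPM to 24.3 ± 2.85 TPM (SD, n = 3), and this call held whichever library was left out. ssc-miR-10b rose (0.85 ± 0.26, adjusted p = 0.0408), from 10704 ± 3953 TPM to 18466 ± 1306 TPM. That call was lost without replicate 1 or 3 of IMF-0d or replicate 1, 2 or 3 of IMF-8d, where the limma adjusted p was 0.112, 0.111, 0.117, 0.087 and 0.1, and under median-of-ratios scaling (adjusted p = 0.0592) and without a filter (0.181). ssc-miR-196b-5p stood at 32.0 ± 4.98 TPM on day 0 and 45.7 ± 7.49 TPM on day 8 without overlap, and did not pass (0.50 ± 0.18, limma adjusted p = 0.0632). The fall of the ssc-miR-21-5p share from day 0 to day 8 in both sources came with these changes, and its part in them was not tested.

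Between neighbouring days few members changed, as did few entries at all. Of the 36 comparisons of 1 member between adjacent days, 1 passed, the rise of ssc-miR-196b-5p from IMF-4d to IMF-8d (log2 fold change 0.66 ± 0.17, SE, limma adjusted p = 0.0394), where 13% of all entries were DE-miRNAs. In the other steps the share of all entries was 4.19% (BF-0d to BF-2d), 6.05% (BF-2d to BF-4d), 3.02% (BF-4d to BF-8d) and 0% (IMF-0d to IMF-2d and IMF-2d to IMF-4d, where DESeq2 called 9 and 2 entries). The call of ssc-miR-196b-5p was lost when any 1 of the 6 libraries was left out (limma adjusted p from 0.0548 to 0.135) and under median-of-ratios scaling (adjusted p = 0.0588), edgeR (0.0521), DESeq2 (0.0625) and limma without a filter (0.111). ssc-miR-10a-3p from BF-0d to BF-2d had a log2 fold change of -0.71 ± 0.19 and did not pass (limma adjusted p = 0.0906), although its libraries did not overlap and median-of-ratios scaling put it past the threshold (adjusted p = 0.0451), as did edgeR (0.0181) and DESeq2 (0.0184). A member also passed without 1 library in 2 steps, ssc-miR-615 from BF-2d to BF-4d without replicate 1 of BF-4d (log2 fold change -0.96, limma adjusted p = 0.0375, against 0.0768 with all libraries) and ssc-miR-10b from IMF-4d to IMF-8d without replicate 2 of IMF-4d (0.61, adjusted p = 0.0475, against 0.266). The fall of ssc-miR-615 from BF-2d to BF-4d also passed with all libraries under median-of-ratios scaling (limma adjusted p = 0.0301), in one fit of the 24 libraries (0.00219), with edgeR (0.0396) and with DESeq2 (0.00159), so its call depended on the fit.

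The third question was whether the course over days differed between the sources. In the F test for a different course in BF and IMF over the 4 days (the interaction of source and day), ssc-miR-10a-3p passed (limma adjusted p = 0.0270) and the other 5 tested members did not, against 31.6% of all entries. From day 0 to day 8 ssc-miR-10a-3p went from 11.7 ± 2.42 TPM to 5.69 ± 0.915 TPM in BF and from 3.12 ± 0.882 TPM to 4.04 ± 1.14 TPM in IMF (SD, n = 3), a log2 difference of the 2 changes of 1.21 ± 0.32 (SE, limma adjusted p = 0.00805), where 20.7% of all entries passed. The F test was lost without replicate 1 of BF-0d (adjusted p = 0.0915), replicate 1 or 2 of IMF-0d (0.0562 and 0.0905) or replicate 1 or 2 of IMF-8d (0.0523 and 0.0548), and without a filter (0.0667). Per 1000 reads of ssc-miR-10a-5p, the 3p arm went from 1.68 ± 0.494 in BF-0d to 0.666 ± 0.153 in BF-8d without overlap, the exact permutation p of 0.1 being the smallest that 3 against 3 libraries allow. For ssc-miR-615 the fall in BF exceeded that in IMF by 0.56 ± 0.27 and did not pass (limma adjusted p = 0.137, F test 0.134), while under median-of-ratios scaling the difference was 0.71 (adjusted p = 0.0257) and the F test also passed (adjusted p = 0.00778).

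The entries whose group means ran most like those of a member were named over the 8 groups by Pearson's r of log2(TPM + 1), as a description. ssc-miR-196a (r = 0.98) was the entry most like ssc-miR-196b-5p, with novel_miR_487 and novel_miR_1098 next (both 0.97 to 0.98). For ssc-miR-10a-5p they were ssc-miR-92a (0.96), ssc-miR-450b-5p (0.95) and ssc-miR-126-3p (0.95). For ssc-miR-10b they were ssc-miR-500-3p (0.97), ssc-miR-6516 (0.96) and ssc-miR-101 (0.96), and for ssc-miR-615 ssc-let-7d-3p (0.98), ssc-miR-339-5p (0.92) and ssc-miR-130b-5p (0.91). ssc-miR-10a-3p ran most like ssc-miR-450b-3p (0.98), ssc-let-7c (0.96) and ssc-miR-450c-3p (0.94). ssc-miR-10a-5p and ssc-miR-10b, despite their seed, had r = 0.54 over the same 8 groups, and ssc-miR-196a and ssc-miR-615 had r = -0.19. The groups share libraries, depth and the same total, so these values carry no p.

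Relatives of miR-10 that lie outside the HOX clusters gave a comparison of the family without the HOX location. ssc-miR-99a-5p, ssc-miR-99a-3p, ssc-miR-99b and ssc-miR-100 were all tested, and limma called none of the 4 between IMF and BF averaged over the 4 days (2 at an unadjusted p under 0.05, 1 called by edgeR and 0 by DESeq2). Their median log2 fold change there was -0.06, against -0.22 over all 430 entries. On day 0, 2 of the 4 were lower in IMF, on days 2 and 4 limma called none (0 and 1 at an unadjusted p under 0.05, and as many by edgeR and DESeq2), and on day 8 there was 1 higher and 1 lower. From BF-0d to BF-8d 3 of them fell and 1 rose, and from IMF-0d to IMF-8d limma, edgeR and DESeq2 called 0, with 0 at an unadjusted p under 0.05. ssc-miR-100, the most abundant of them, had a mean of 21391 TPM over the BF and 27014 TPM over the IMF libraries. The HOXB cluster also held the predicted entry novel_miR_700, with 11 reads in 8 of 24 libraries, which was not tested.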

How the data were processed

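Small RNA libraries of BF and IMF adipocytes were sequenced at 4 times of culture, 24 in all. As deposited by the authors, the values are RPM values, named TPM, which scale the reads of a library to 1000000 reads counted on miRNAs. Per the methods, clean reads were mapped to Sscrofa11.1 without mismatches by Bowtie, other small RNA classes were removed, known miRNAs were named from miRBase and new ones were predicted with miRDeep2. The methods for miRNAs give no version of these tools. The authors' comparisons used DESeq2 with FDR under 0.05 and fold change above 1.5.

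Every one of the 38088 values was a whole multiple of what 1 read was worth, within 0.000569 reads, so whole reads were recovered. Depth was 4954845 to 16863560 miRNA reads per library, and 1 read was worth 0.0593 to 0.202 TPM. Groups and replicate numbers came from the labels. The main test was limma 3.58.1 (R 4.3.3, trended empirical Bayes) on log2(TPM + 1) over the 430 entries whose mean reached 1 TPM, per pair of groups, with Benjamini-Hochberg adjustment over all of them. The average over days and the F test of the interaction used one fit of 24 libraries, and a pair of groups used its own 6. Alternatives were a pseudocount of 0.1 TPM, a minimum mean of 10 TPM or none, one fit for all groups, a replicate block, median-of-ratios scaling, edgeR 4.0.16 and DESeq2 1.42.0 on whole reads, FDR alone and leaving out each library. Ratios were compared by exact permutation of the source within days, and pooled reads by exact binomial intervals. Mature sequences came from the study's own list and were matched to the RefSeq genome of build Sscrofa11.1, with neighbouring genes from its annotation. The statistics were tested on simulated data.

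The entries named besides the members were, by rule, the 3 most alike in group means, the miR-99 and miR-100 relatives and 4 marker lists (muscle, blood, endothelium and adipocytes). The members and lists were chosen with earlier results of these data known. Ratios and intervals were computed with SciPy 1.17.1 and NumPy 2.4.6 in Python 3.11.15, and tables and plots with pandas 2.3.3 and Matplotlib 3.10.9.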

Additional observations from a re-analysis of the deposited data

Results flagged for a closer look

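ssc-miR-10a-3p differed between the sources in its course over the days. The F test of the interaction gave a limma adjusted p of 0.027 (0.00713 to 0.0915 over its alternatives), and the change from day 0 to day 8 was 1.21 higher in IMF than in BF on the log2 scale. In BF all 3 libraries of day 8 lay below all 3 of day 0, while in IMF the libraries of these days overlapped. Groups of 3 libraries are too small for the check for single libraries that stand apart.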

How the results depend on the processing

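Of 961 alternatives for single members, 874 kept direction and call, 52 lost the call, 15 gained it and 20 changed sign, and all 125 alternatives for the ratios kept both. The numbers of called members moved under the following settings, and under the replicate block, which is given further on. Without a filter they were 4 on day 0, 1 on day 2, 2 on day 4, 2 from BF-0d to BF-8d, 1 from IMF-0d to IMF-8d and 0 for the interaction. With a mean of at least 10 TPM, which leaves ssc-miR-10a-3p and ssc-miR-196a untested, they were 3 on day 0, 2 on each later day, 2 from BF-0d to BF-8d, 2 in the average and 0 for the interaction. Under median-of-ratios scaling the count was 1 from IMF-0d to IMF-8d and 2 for the interaction, and edgeR and DESeq2 also gave 2 for the interaction. These 3 each gave 4 on day 0, where ssc-miR-615 was lost, and 3 on day 4, where ssc-miR-10a-3p was lost. With a pseudocount of 0.1 TPM the count was 2 on day 2, in one fit of all libraries it was 4 on day 2, and with FDR alone it was 5 in the average. Without 1 library the counts ran from 4 to 5 on day 0, 1 to 3 on day 2, 3 to 4 on day 4, 1 to 2 from IMF-0d to IMF-8d and 0 to 1 for the interaction.

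None of the members whose sign changed was called in that comparison at the fold threshold of 1.5, but ssc-miR-615 in the average passed at the FDR alone (-0.24, limma adjusted p = 0.0328). ssc-miR-10b between sources was 0.021 on day 0 (edgeR), 0.028 and 0.046 on day 4 (median-of-ratios scaling and edgeR), and 0.067, 0.072 and 0.0090 on day 8 (median-of-ratios scaling, edgeR and DESeq2). ssc-miR-615 between sources was 0.20, 0.23 and 0.17 on day 8 and 0.018, 0.028 and 0.0017 in the average, in the same order. ssc-miR-10a-5p from IMF-0d to IMF-8d was -0.084 with edgeR and -0.096 with DESeq2. Without 1 library, ssc-miR-10b on day 0 ran from -0.51 to 0.033, ssc-miR-615 on day 4 from -0.014 to 0.22, ssc-miR-196b-5p from BF-0d to BF-8d from -0.097 to 0.11, and ssc-miR-10a-5p from IMF-0d to IMF-8d from -0.070 to 0.15. The cause was not tested.

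The replicate numbers were not taken as pairs, since same-numbered libraries had correlations of -0.33 to 0.51 and were over 0.1 for every pair in 1 of 12 comparisons, and a library correlated best with its own number in 11 of 36. The replicate block changed 4 of 52 single results, ssc-miR-10a-5p and ssc-miR-196a on day 2 (limma adjusted p = 0.0703 and 0.0823), ssc-miR-10b from IMF-0d to IMF-8d (0.0614) and ssc-miR-196b-5p from IMF-4d to IMF-8d (0.0842), giving 1 called member on day 2 and 1 from IMF-0d to IMF-8d. Depth limited ssc-miR-196b-3p and the BF levels of ssc-miR-196a.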

Other observations

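The library highest in ssc-miR-10a-5p was also the highest in ssc-miR-10b in 8 of 8 groups, and it was the library numbered 2 in 5 of them. The 2 miRNAs differ by 1 base and come from different chromosomes. How often other pairs of entries share their highest library was not counted, and the cause was not tested.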
